A study of Rattus norvegicus with 20 samples.

Results

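The natriuretic peptide genes Nppa, Nppb and Nppc and the receptor genes Npr1, Npr2 and Npr3 were followed across the mRNA, DNA and chromatin arrays of a normal and a failed rat heart. Members were all probe sets annotated to exactly 1 gene whose symbol is among these 6 names, which gave 6 probe sets, 1 per gene, of 20826 probe sets for 14217 genes. The 20 arrays were Affymetrix Rat Genome 230 2.0 expression arrays, 10 for each heart: mRNA, input genomic DNA from before immunoprecipitation (pre-IP), and chromatin immunoprecipitates (ChIP) for 8 histone marks. These marks were acetylated H3 (H3ac), acetylated H4 (H4ac) and 6 methylations whose labels give the lysine but no histone: dimethylation at K4, K9 and K27 (K4me2, K9me2, K27me2) and trimethylation at K4, K9 and K20 (K4me3, K9me3, K20me3). Both hearts came from Dahl rats, a stock selected for how salt affects blood pressure, and every label that gives an age gives 19 weeks. The label of the normal H4ac array gives no age and names pre-IP DNA as its source, but its title and description name acetylated H4, and it was used as such. The failed heart is described as congestive heart failure, and a high-sodium diet is named for its mRNA sample. The diet of the normal rat, the sex and the Dahl substrain are not given in the sources used here. Each assay had 1 array per heart, made from a single left ventricle specimen, so none of the values below has a replicate error and none was tested for significance. Whether the 10 assays of a heart used the same specimen is not stated. Differences are between 2 arrays, not between groups of animals.

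Natriuretic peptides are hormones that lower blood pressure and blood volume. Nppa encodes atrial natriuretic peptide (ANP) and Nppb brain natriuretic peptide (BNP), both secreted by stretched heart muscle. Nppc encodes C-type natriuretic peptide (CNP), made mainly by endothelium and other tissues. ANP and BNP act through the guanylyl cyclase receptor encoded by Npr1, and CNP through that encoded by Npr2, and both receptors make the messenger cyclic GMP inside the cell. The receptor encoded by Npr3 has no cyclase domain and clears all these peptides from the circulation. In ventricle, Nppa and Nppb are known as genes of fetal and overloaded muscle, and their blood products are used to diagnose heart failure.

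Nppa and Nppb lie next to each other on chromosome 5, and their RefSeq promoter windows are shown because both genes had more mRNA in the failed heart. Each window holds 250 bases before and 50 bases after the annotated start, read 5′ to 3′ on the plus strand of GRCr8, at chr5:163711934-163712233 for Nppa and chr5:163699758-163700057 for Nppb. Capitals mark matches on either strand to GATA (the core bound by GATA factors such as Gata4), AAGTG (the core of sites for NK2 homeodomain factors such as Nkx2-5), GGAATG (the M-CAT element bound by TEAD factors) and TATAAA (the TATA box).
Nppa: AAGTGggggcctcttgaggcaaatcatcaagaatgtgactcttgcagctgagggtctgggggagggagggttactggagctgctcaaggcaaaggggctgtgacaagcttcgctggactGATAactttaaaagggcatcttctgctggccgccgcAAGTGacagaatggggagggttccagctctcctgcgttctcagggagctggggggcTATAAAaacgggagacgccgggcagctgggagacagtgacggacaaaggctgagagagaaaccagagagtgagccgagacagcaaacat
Nppb: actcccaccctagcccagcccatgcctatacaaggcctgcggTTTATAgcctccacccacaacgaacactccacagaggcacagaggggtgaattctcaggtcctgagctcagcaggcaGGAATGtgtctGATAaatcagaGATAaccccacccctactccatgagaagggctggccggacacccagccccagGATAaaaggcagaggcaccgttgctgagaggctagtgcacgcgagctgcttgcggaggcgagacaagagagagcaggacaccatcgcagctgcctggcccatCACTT

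The Nppa window held GATA starting at base -131 from the start site, AAGTG at -250 and -95, and TATAAA at -39. In the Nppb window GATA began at -120, -109 and -57, GGAATG at -131, a reverse-strand AAGTG at 46 and a reverse-strand TATAAA at -208. No 2 of these matches overlapped. Such short words are common: of 33469 RefSeq windows of the same length, 60.5% held GATA, 46.2% AAGTG, 14.2% GGAATG and 14.2% TATAAA. The CArG box, the site of serum response factor, was sought only in its strict form CCWWWWWWGG, where W is A or T. That form was in 1.64% of windows and had no exact match in either gene's window. Looser forms of the box were not sought, so their absence is not shown. Of the other members, Nppc held TATAAA at -48, Npr3 held GATA at -167 and, on the reverse strand, at -142 and AAGTG at 37, and Npr1 held none of the 5 words. Npr2 is named only. The arrays carry probes for transcripts and none was placed on these windows by any source used here, so no ChIP value below is a measurement of these promoters.

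Each array was brought to a median of 100, anything below 10 was raised to that floor, and a difference is the log2 value of the failed heart minus that of the normal heart. A difference was counted when it reached 1 in size, which is 2-fold, at a gene whose mean level over the arrays involved reached the median of all probe sets, called the level filter below. Between 2.04% and 11.0% of probe sets were at the floor of an array. The 3′ to 5′ signal ratio of the control probe sets, a measure of RNA integrity, read 11.3 for GAPDH in the normal sample against 22.6 in the failed one, and 18.2 against 12.4 for beta-actin, and its part in the mRNA values was not tested. Of 9317 genes past the level filter for mRNA, 15% differed at least 2-fold.

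The mRNA arrays asked which of the 6 genes had another level in the failed ventricle. Both cardiac peptide genes were higher in the failed heart, the CNP receptor gene Npr2 was lower, and the ANP and BNP receptor gene Npr1 had nearly the same value. Nppc and the clearance receptor gene Npr3 were close to the floor in both hearts. In all, 4 of 6 members passed the level filter, of which 2 were higher and 1 was lower by 2-fold or more.

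Nppa (probe set 1367564_at) had an mRNA level of 1231 in the normal heart and 24294 in the failed one. The difference was 4.30, which is 19.7-fold, and ranked 6 from the top among all 14217 genes. Its level stood at percentile 92.9 of genes on the normal array, so the gene was already among the brighter ones there, and at percentile 99.9 on the failed array.

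Nppb (1367616_at) had an mRNA level of 2017 in the normal heart and 11114 in the failed one. This difference of 2.46, or 5.51-fold, ranked 210 among all genes and 40 among those past the level filter. Nppb too was bright in the normal ventricle, at percentile 96.6, and moved to percentile 99.5. Both peptide genes were above the array median in both hearts, and the gap between the hearts was larger for Nppa than for Nppb in each scaling tried.

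Nppc (1387744_at), the CNP gene, was at the floor of 10 in the normal heart and at 13.8 in the failed one, percentiles 3.04 and 9.18. The gene did not pass the level filter, and with both values near the floor no fold is given. This probe set thus gave CNP mRNA no level clear of the floor in either ventricle.

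Among receptors, Npr2 (1387099_at) had an mRNA level of 747 in the normal heart and 313 in the failed one. The difference was -1.25, or 2.38-fold lower, and its place among genes moved from percentile 86.2 to 62.6. The labels call the RNA left ventricular myocytes, but markers of other cell types were measured above the floor, as given below. Fewer cells that express a gene and less RNA per cell therefore cannot be told apart for any mRNA value here. Npr1 (1368201_at) had levels of 340 and 342, a difference of 0.0066. Since the median of all genes past the level filter was 0.23, Npr1 lay 0.22 below that median, and its sign turned with the scaling: it was -0.26 with the values as deposited. Npr3 (1369273_a_at) had levels of 15.4 and 23.0, percentiles 9.53 and 12.8, and did not pass the level filter. Of the receptors, Npr1 and Npr2 were thus measured well above the floor, and Npr2 was the member with less mRNA in the failed heart.

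**Figure D1:**
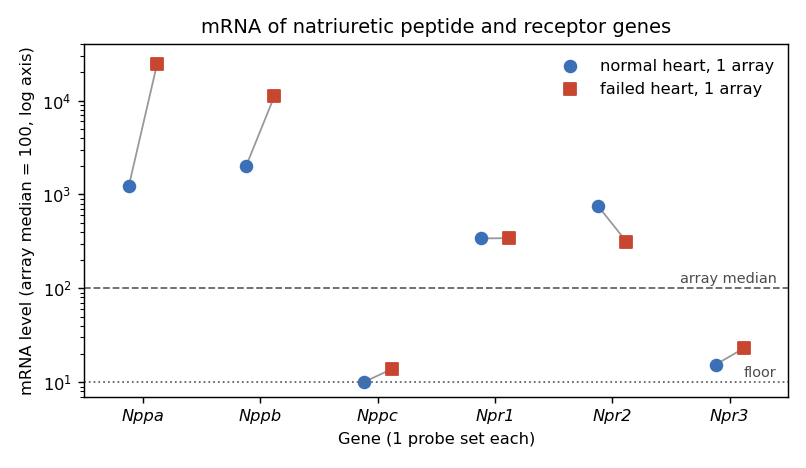
mRNA level of each gene on the normal (blue circle) and failed (red square) array, 1 array each, on a log axis where 100 is the array median and 10 the floor. Nppa and Nppb were higher in the failed heart, at 24294 and 11114, Npr2 was lower, at 313, Npr1 was level at 340 and 342, and Nppc and Npr3 lay near the floor.

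Rescaling matters for the balance of directions. Rescaled, 11.8% of the genes past the level filter were higher by 2-fold or more and 3.14% lower, which is 1104 and 293 genes, while as deposited 568 were higher and 639 lower. The median ratio of the arrays themselves shifts each mRNA difference by -0.27 when values are taken as deposited. Under that scaling Nppa differed by 4.04, Nppb by 2.20 and Npr2 by -1.52, so the direction and the 2-fold size of all 3 stayed. With quantile normalization over all 20 arrays the differences shrank to 3.65 for Nppa, 1.42 for Nppb and -1.04 for Npr2, still past 2-fold.

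The rest of the pathway was read from lists of genes that act before and after the peptides. Genes whose products cut or modify the peptide precursors or degrade the peptides had a median difference of 0.44 over 8 measured genes. The median over all 14217 genes was 0.15. Over all genes past the level filter it was 0.23, with 11.8% higher and 3.14% lower by 2-fold or more. The 6 list genes past the filter had a median of 0.44, with 1 higher by that size, Galnt1, and 0 lower. The highest values were 2.67 for Mep1a, a meprin protease that cleaves peptides and was near the floor in the normal heart, at 10.3, and 1.06 for Galnt1, which adds sugars to proteins including the BNP precursor. At the low end were Dpp4, a peptidase that trims BNP, at -0.75 and the convertase gene Pcsk5 at 0.19. Furin, the convertase of the BNP precursor, differed by 0.35, and Mme, which encodes neprilysin, the main degrading enzyme, had levels of 33.4 and 39.9, under the array median. Corin, the ANP convertase gene, was not analysed here.

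Genes that make cyclic GMP from other sources or act on it had a median of -0.68 over 17 measured genes, against 0.15 over all 14217 genes. Among the 8 past the level filter the median was -0.21, with 0 at least 2-fold higher and 1 lower, Kcnma1, a potassium channel gene of smooth muscle, at -1.03. The lowest values, -2.71 for Gucy2f and -2.41 for Cnga2, belong to genes of sensory cells with levels of 65.5 and 102 in the normal heart. Gucy2f was at the floor in the failed heart, so its value depends on the floor. The highest values were 0.77 for Gucy2d, dim in both hearts, and 0.43 for Rgs2, a brake on G protein signalling that cyclic GMP kinase activates. Gucy1a1, a subunit of the nitric oxide receptor, had levels of 1267 and 792, a difference of -0.68.

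Genes of phosphodiesterases, which degrade cyclic GMP, and of their subunits had a median of 0.00 over 11 measured genes. That value came from genes at the floor in both hearts. The 3 past the level filter had a median of -0.36, against 0.23 over all genes past it, and 0 of them differed at least 2-fold. Pde3a at -2.80, from 111 to 15.9, and Pde1b at -0.68 were the lowest, neither past the filter, and Pde6d at 0.49 and Pde3b at 0.37 the highest. Pde5a and Pde6a were at the floor in both hearts, which makes their differences 0. Pde2a, which cyclic GMP itself activates, had levels of 759 and 581.

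Transcription factors known to act on the Nppa and Nppb promoters had a median of 0.57 over 16 measured genes, against 0.15 over all 14217 genes. Of the 15 past the level filter, with a median of 0.62 against 0.23 over all genes past it, 3 were higher by 2-fold or more and 0 lower. Over all genes past the filter, 11.8% were higher and 3.14% lower by that size. Fos, an immediate early gene, was highest at 1.57, from 432 to 1278, and Gata4 followed at 1.50, from 129 to 365. Tead1, the next at 1.48, went from 2376 to 6635. The lowest were Gata6 at -0.59 and Nkx2-5, a cardiac homeodomain factor, at 0.071. With values as deposited each of these differences is 0.27 lower, apart from genes at the floor.

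**Figure D2:**
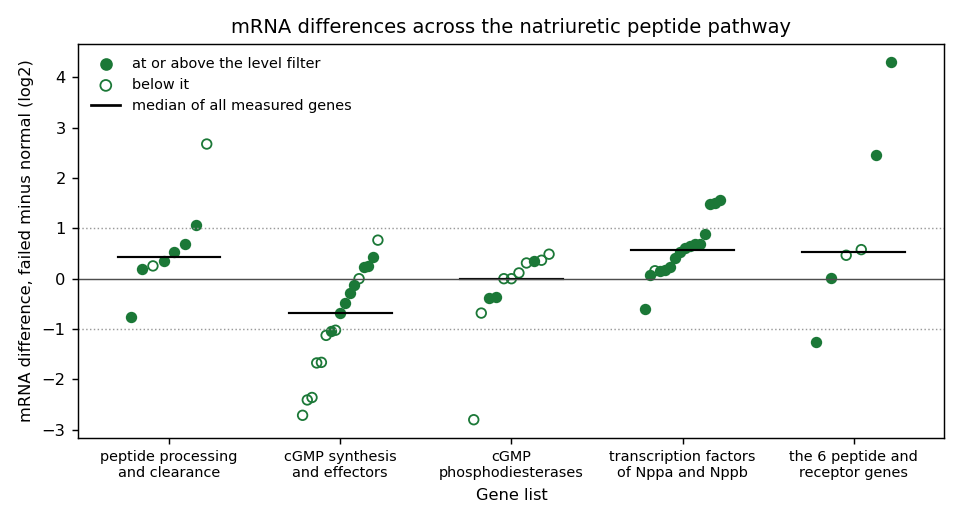
mRNA difference (log2, failed minus normal) of each measured gene in 4 pathway lists and of the 6 peptide and receptor genes. Filled points passed the level filter, open points did not, black lines are medians and dotted lines mark 2-fold; the transcription factor median lies at 0.57 and that of cyclic GMP synthesis and effector genes at -0.68.

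Markers of cell types were read beside the members because the left ventricle holds more than muscle cells and Nppa is abundant in atria. For muscle itself, 10 measured cardiomyocyte genes had a summed level of 125780 in the normal heart and 169420 in the failed one, with a median difference of 0.68, and 0 were at the floor. All 10 passed the level filter, with 4 at least 2-fold higher and 1, Myh6 at -1.03, lower. Over all genes past that filter 11.8% were higher and 3.14% lower by that size. Of the 9 measured atrial genes the summed level went from 1900 to 3509, with a median of -0.055, and of 5 past the level filter 1 was higher and 1 lower by 2-fold or more, and 0 at the floor. The atrial light chain gene Myl7 went from 27.1 to 172, Sln, an atrial calcium pump regulator, from 140 to 48.4, and Myl4 from 129 to 124. Dkk3, at 2.21, made up most of the gain in the atrial sum. The part of atrial tissue in the Nppa value was not tested.

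Smooth muscle, where Npr1, Npr2 and cyclic GMP targets are known to act, had lower values beside Npr2. Its 9 smooth muscle and pericyte markers, all past the level filter, had a median of -1.11, with 6 at least 2-fold lower and 1 higher. Over all genes past that filter the median was 0.23, with 3.14% lower and 11.8% higher by that size. The summed level of the 9 markers went from 7665 to 5954 with 0 at the floor. Besides the 6 lower ones, 3 lay above 0: Des, a gene also of heart muscle, at 2.43, and the pericyte markers Rgs5 at 0.44 and Pdgfrb at 0.14. Endothelial markers had a median of -0.54 over 9 genes, and fibroblast markers one of 0.87 over 9, with summed levels of 13142 and 13083, and of 27087 and 52338. By 2-fold or more, 1 endothelial and 3 fibroblast markers were higher and 0 lower. Macrophage markers went from 2797 to 10527 over 8 genes, with a median of 0.91. In these 3 lists 0 genes were at the floor of either mRNA array. How far the cell makeup accounts for the Npr2 value was not tested.

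The DNA arrays asked how much of each mark was found at the 6 genes. Enrichment of a mark is its log2 ChIP level less the log2 pre-IP level of that heart, so all 8 marks of a heart share 1 pre-IP value per gene, and an unusual pre-IP value moves all 8 together. At Nppa the pre-IP values of the hearts differed, at Nppb they were high in both, and at Npr1 the DNA signal was near the floor on many arrays. For pre-IP DNA, 4 of 6 members passed the level filter and 1 of these, Nppa, differed at least 2-fold, where 7.46% of the 7015 genes past the filter did.

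**Figure D3:**
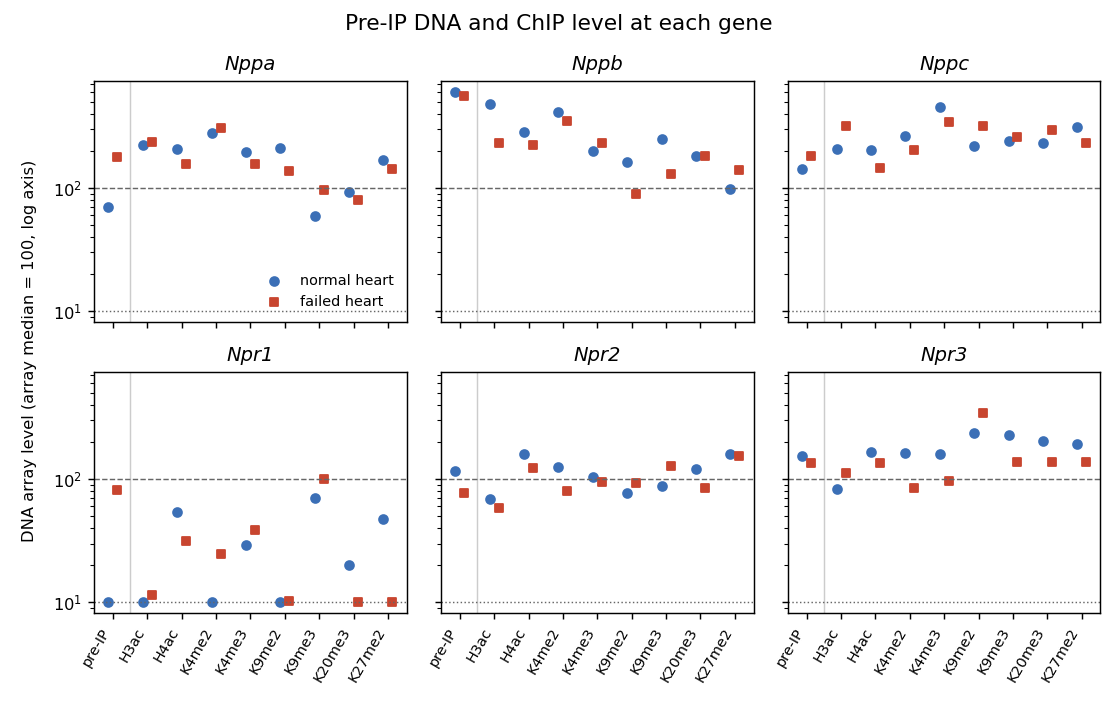
Level of pre-IP DNA and of ChIP for 8 marks at each gene in the normal (blue circles) and failed (red squares) heart, 1 array per point, on a log axis where 100 is the array median and 10 the floor. The pre-IP points of Nppa lie at 69.8 and 177 while its ChIP points overlap between hearts, the pre-IP points of Nppb at 601 and 555 lie above all its ChIP points, and Npr1 is near the floor on many arrays.

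At Nppa the pre-IP level was 69.8 in the normal heart and 177 in the failed one, a difference of 1.34, at percentile 94.9 of all genes. In the normal heart its ChIP levels were 224 for H3ac, 208 for H4ac, 277 for K4me2, 195 for K4me3, 212 for K9me2, 59.2 for K9me3, 92.3 for K20me3 and 169 for K27me2. In the failed heart they were 238, 156, 304, 157, 137, 95.4, 80.3 and 144 in the same order. K4me2 gave the highest ChIP level in both hearts, and the ranges of the hearts overlapped widely.

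Over pre-IP, 6 marks were enriched at least 2-fold at Nppa in the normal heart. These were K4me2 at 1.99, H3ac at 1.68, K9me2 at 1.60, H4ac at 1.58, K4me3 at 1.48 and K27me2 at 1.28, where 24.5%, 21.6%, 9.5%, 15.7%, 5.45% and 5.32% of genes past the level filter reached 2-fold. Marks known from active genes and marks known from silent genes were both among them. K9me3 at -0.24 and K20me3 at 0.40 were not enriched, against 7.9% and 5.71% of genes that were. In the failed heart 0 marks were enriched 2-fold at Nppa, the highest being K4me2 at 0.78. The shares of genes enriched there were 20.3% for H3ac, 10.4% for H4ac, 29.3% for K4me2, 5.48% for K4me3, 16.1% for K9me2, 8.34% for K9me3, 6.11% for K20me3 and 6.82% for K27me2. At Nppa, K20me3 was depleted at -1.14 in that heart, as it was at 9.85% of genes.

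All 8 enrichments of Nppa were thus lower in the failed heart, by differences from -0.65 for K9me3 to -1.97 for K9me2, with a median of -1.56. Of these, 6 counted as at least 2-fold: K9me2, H4ac at -1.76, K4me3 at -1.66, K27me2 at -1.58, H3ac at -1.25 and K4me2 at -1.21. Among genes past the level filter 25.3% counted for K9me2, 11.4% for H4ac, 18.7% for K4me3, 13.2% for K27me2, 19.3% for H3ac and 18.2% for K4me2. K20me3, at -1.54, did not pass the filter. The ChIP levels by themselves differed by -0.63 to 0.69, with a median of -0.22, and 0 of 8 reached 2-fold. The 2-fold size of the Nppa mark differences therefore came with the pre-IP correction, and H3ac and K4me2 changed sign without it, to 0.086 and 0.13. Genes with such a pre-IP difference share this pattern, which the calculation favours because the pre-IP difference is subtracted from every mark. Of 275 genes with pre-IP DNA at least 2-fold higher in the failed heart, 67.6% had all 8 enrichment differences below 0. Among the 7015 genes past the pre-IP level filter the share was 9.15%.

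**Figure D4:**
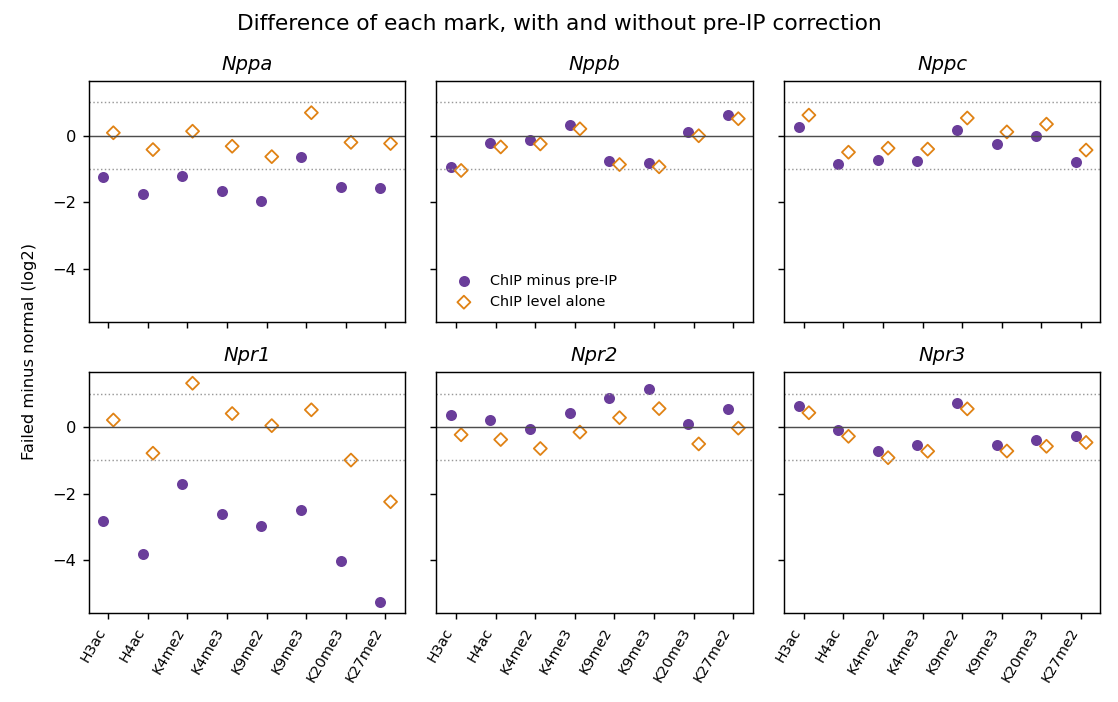
Failed minus normal difference (log2) of each mark at each gene, as ChIP minus pre-IP (purple points) and as ChIP level alone (orange open diamonds), with dotted lines at 2-fold. At Nppa all 8 corrected differences lie between -1.97 and -0.65 and the uncorrected ones between -0.63 and 0.69, while at Nppb and Npr3 both measures stay close.

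Nppb differed from Nppa in having a high and nearly equal pre-IP level in both hearts, 601 in the normal heart and 555 in the failed one, percentiles 98.2 and 97.8. Its ChIP levels in the normal heart were 479 for H3ac, 283 for H4ac, 416 for K4me2, 201 for K4me3, 162 for K9me2, 249 for K9me3, 181 for K20me3 and 98.7 for K27me2. In the failed heart they were 232, 224, 350, 231, 88.8, 130, 181 and 140. H3ac was the highest in the normal heart, followed by K4me2, and K4me2 was the highest in the failed heart.

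All 8 marks lay below pre-IP at Nppb in both hearts, from -0.33 for H3ac to -2.60 for K27me2 in the normal and from -0.67 for K4me2 to -2.64 for K9me2 in the failed heart. In the normal heart 6 were depleted at least 2-fold: H4ac at -1.08, K9me3 at -1.27, K4me3 at -1.58, K20me3 at -1.73, K9me2 at -1.89 and K27me2, where 3.9%, 8.5%, 5.29%, 9.44%, 16.6% and 11.2% of genes were. H3ac and K4me2 at -0.53 were not, against 6.37% and 7.33% of genes. The failed heart had 7, these same marks and H3ac at -1.26, where 3.12% of genes were. The other shares there were 3.48% for K4me2, which was not among the 7, 2.91% for H4ac, 3.89% for K4me3, 14.2% for K9me2, 11.9% for K9me3, 9.85% for K20me3 and 11.7% for K27me2. Having all 8 marks below pre-IP in both hearts was seen at 0.927% of the 7015 genes past the pre-IP level filter and at 2.38% of the 504 genes whose pre-IP level was in the top 5% of both hearts.

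Between the hearts, 0 of the 8 enrichments of Nppb differed 2-fold. They ran from -0.93 for H3ac to 0.62 for K27me2, with 5 below 0. The ChIP level of H3ac by itself went from 479 to 232, a difference of -1.04. The acetylated H3 value was the lowest of the 8, and it lay at the edge of 2-fold: with quantile normalization within each assay it was -1.002 and counted.

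At Nppc, whose mRNA was near the floor, pre-IP DNA was 141 in the normal heart and 181 in the failed one and every ChIP level lay above the array median. ChIP levels ran from 205 for H4ac to 451 for K4me3 in the normal heart and from 145 for H4ac to 341 for K4me3 in the failed heart. All 8 marks lay above pre-IP in the normal heart, as at 4.13% of the 7015 genes past the pre-IP level filter, and 7 of 8 in the failed heart. K4me3 at 1.67 and K27me2 at 1.15 were enriched at least 2-fold in the normal heart, as were 5.45% and 5.32% of genes past the level filter. No mark was enriched 2-fold at Nppc in the failed heart, with K4me3 at 0.92 the highest of the 8. There 5.48% of genes were enriched for K4me3 and 6.82% for K27me2. The K4me3 enrichments stood at percentiles 96.9 and 92.1 of all genes. Differences between hearts lay between -0.85 for H4ac and 0.26 for H3ac, and 0 of 8 reached 2-fold.

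Npr1 had little DNA signal. Its pre-IP level was 10.1 in the normal heart, at percentile 2.61, and 81.9 in the failed heart. ChIP levels were at the floor for H3ac, K4me2 and K9me2 in the normal heart and for K20me3 and K27me2 in the failed heart, and the highest was K9me3 in both hearts, at 70.1 in the normal one and at the array median in the failed one. Differences of enrichment lay between -1.71 for K4me2 and -5.26 for K27me2, all 8 below 0, but the gene passed the level filter for none of the 8 marks. With the normal pre-IP value just above the floor these differences take their size from dim values of 1 probe set, and none of them was counted.

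Npr2, the receptor gene with less mRNA in the failed heart, had pre-IP levels of 117 and 77.8. ChIP levels in the normal heart ran from 69.0 for H3ac to 160 for H4ac, and in the failed heart from 58.7 for H3ac to 155 for K27me2, so H3ac was lowest in both. In neither heart did a mark count as enriched or depleted 2-fold. Its K9me3 enrichment went from -0.42 to 0.71, a difference of 1.13, and was the only 2-fold gain of a mark among the 6 genes, where 20.6% of genes counted for K9me3 in either direction. The K9me3 ChIP level by itself went from 87.2 to 128, a difference of 0.55, under 2-fold. The other 7 differences lay between -0.064 for K4me2 and 0.86 for K9me2.

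At Npr3 pre-IP levels were 155 and 136. K9me2 gave the highest ChIP level in both hearts, 237 in the normal heart and 344 in the failed one, at percentiles 89.9 and 94.4 of genes. Its K9me2 enrichment was 0.61 in the normal heart and 1.34 in the failed one, the latter counted as 2-fold, as for 16.1% of genes. H3ac was lowest in the normal heart at 82.9 and K4me2 in the failed heart at 85.5. No difference between hearts reached 2-fold at Npr3, the range being -0.73 for K4me2 to 0.73 for K9me2.

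Over the 6 genes and 8 marks there were 48 differences, of which 34 passed the level filter and 7 counted as 2-fold: 6 lower at Nppa and 1 higher at Npr2. K20me3 had 0 of 4 members counted, where 17.5% of genes were. Counting members cannot set this gene group apart, since 6 of the 7 belong to 1 gene and share its pre-IP values.

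The genes around Nppb and Nppa were read to see whether the pre-IP difference was that of Nppa alone. In RefSeq order the protein-coding genes with a probe set are Mfn2, Plod1, 2510039O18Rikl, Nppb, Nppa, Clcn6, Agtrap and Draxin. On the Nppa side all 3 neighbours had more pre-IP DNA signal in the failed heart: Clcn6, a chloride transporter gene, went from 310 to 563, Agtrap, which encodes a partner of the angiotensin receptor, from 41.9 to 68.0, and Draxin, an axon guidance gene, from 91.2 to 190. These differences were 0.86, 0.70 and 1.06, so only Draxin reached 2-fold. Of all 14217 genes, without the level filter, 15.5% did in either direction, and of genes past the pre-IP level filter 7.46% did. That filter was not applied to the neighbours, and Agtrap lay below the array median in both hearts. Over all 14217 genes the median pre-IP difference was 0.012. Whether these genes differ as a region was not tested. On the Nppb side all 3 had less: Mfn2, a mitochondrial fusion gene, differed by -0.70, Plod1, a collagen lysyl hydroxylase gene, by -0.33 and 2510039O18Rikl by -0.82. Nppb itself, at -0.11, had nearly the same pre-IP level in both hearts, and Nppa was at 1.34. A change of sign between these adjacent genes thus rests on the small, unreplicated Nppb value.

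H3ac and K4me2, both enriched at Nppa in the normal heart, also lay above pre-IP at its 3 neighbours. H3ac enrichment there was 1.27 at Clcn6, 1.16 at Agtrap and 1.81 at Draxin, and K4me2 was 1.48, 1.14 and 2.16. Of the other marks enriched at Nppa in the normal heart, H4ac also lay above pre-IP at all 3, at 1.67, 0.70 and 1.07. K9me2 lay below it at Clcn6, at -0.028, and at Agtrap, at -2.07. K4me3 and K27me2 lay below it at Clcn6, at -0.12 and -0.047. Of genes past the level filter, 21.6% were enriched 2-fold for H3ac and 24.5% for K4me2 in that heart. In the failed heart H3ac was -0.10, -0.33 and 0.54 and K4me2 0.031, 0.58 and 1.34, where 20.3% and 29.3% of genes were enriched 2-fold. The higher pre-IP values of these 3 genes in the failed heart enter all of these enrichments, as at Nppa. On the Nppb side H3ac in the normal heart was 0.36 at Plod1, 0.33 at Mfn2 and -0.62 at 2510039O18Rikl, and K4me2 was -0.11, -1.03 and 0.070. The mRNA differences of the neighbours were smaller than those of the peptide genes: 1.06 at Mfn2, 0.22 at Plod1, 0.24 at 2510039O18Rikl, 0.049 at Clcn6, 0.78 at Agtrap and 0.44 at Draxin, with the last 2 under the level filter.

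**Figure D5:**
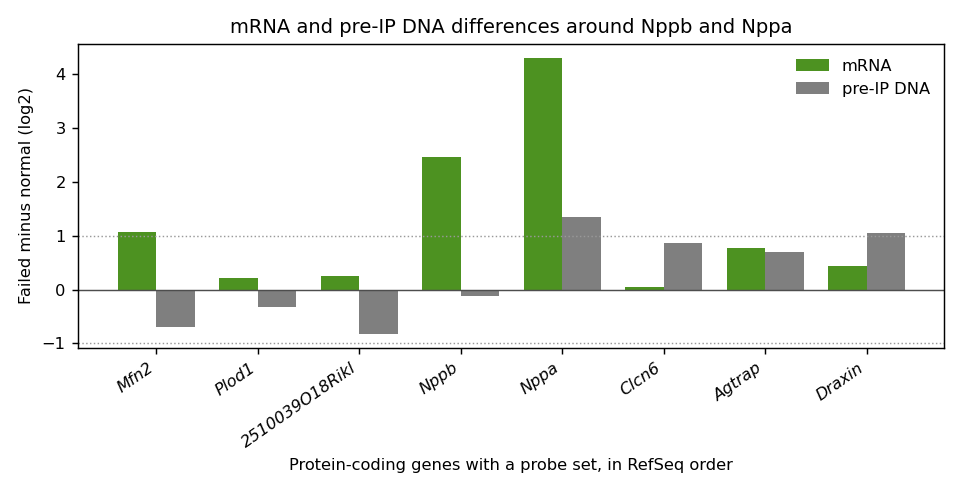
Failed minus normal difference (log2) of mRNA (green bars) and pre-IP DNA (grey bars) for 8 protein-coding genes in RefSeq order around Nppb and Nppa, 1 array per heart, with dotted lines at 2-fold. The mRNA bars of Nppb and Nppa, 2.46 and 4.30, are the tallest. The pre-IP bars are below 0 from Mfn2 to Nppb, whose bar is small at -0.11, and above 0 from Nppa to Draxin.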

How the data were processed

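The deposited table holds intensity on a linear scale, with 31099 probe sets (57 of them controls) on each array. Per the labels, RNA was made into biotin-labelled cDNA and fragmented DNA was amplified by T7 transcription. Which software summarised the arrays is not given in the sources used; on every array the mean without 2% of values at each end lay between 500.03 and 500.17, a sign of global scaling before deposit.

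Arrays were rescaled to a median of 100, floored at 10 and log2-transformed with Python 3.11.15 and pandas 2.3.3. Gene symbols came from the platform annotation of the array: 20826 probe sets had 1 gene, 436 several and 9780 were not listed, and 20758 identifiers matched RefSeq (GRCr8), which renamed 0. Where a gene had several probe sets, the one with the highest mean mRNA level was used. All 6 named genes had 1. The counting was run on a noisy copy of the normal mRNA array with shifts set well above 2-fold. That run checks the calculation only and cannot tell how many of the counted genes differ by noise.

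The members, lists and neighbour rule were chosen with earlier results of these data known. In each pathway list the 2 highest and 2 lowest mRNA differences were named, and other list genes were chosen after their values were seen. Alternatives covered scaling, floor, probe set choice, level filter and pre-IP correction. With 1 array per group no p-value was computed, and the number of arrays limits the precision.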

Additional observations from a re-analysis of the deposited data

How the results depend on the processing

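With 1 array per assay and heart, no error or test was possible, and no leave-one-out analysis. No paired analysis was possible because each group holds 1 array. In the 8 settings tried for mRNA, the difference of Nppa ran from 3.65 to 4.30, that of Nppb from 1.42 to 2.46 and that of Npr2 from -1.52 to -1.04, each past 2-fold throughout. Only the changes of scaling moved these values. Other floors, averaging of probe sets and dropping the level filter could not move them. Each of these genes has 1 probe set, lies well above the floors and passes the filter. Npr1 moved to -0.26 as deposited, -0.11 with quantile normalization over all arrays and -0.18 with quantile normalization within each assay, a setting added after seeing the data. With the floor at 50, Nppc and Npr3 moved to 0. Without the pre-IP correction the Nppa differences for H3ac and K4me2 turned to 0.086 and 0.13; those for H4ac, K4me3, K9me2 and K27me2 and that of Npr2 for K9me3 fell under 2-fold, while that of Nppb for H3ac passed it at -1.04. The latter was -1.002 with quantile normalization within each assay, where Nppa for K20me3, at -1.55, also passed the level filter, and Nppc for K27me2 was -1.04 with quantile normalization over all arrays. Without the level filter, the pre-IP difference and all 8 mark differences of Npr1 and the K20me3 difference of Nppa also counted.

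Numbers of genes past 2-fold moved as follows. Quantile normalization over all arrays gave 321 for mRNA against 1397, 1888 for K20me3 against 1238 and 1479 for K27me2 against 930. Without the level filter, where more genes are tested, the numbers were 3366 for mRNA, 2201 for pre-IP, 3930 for H3ac, 3006 for H4ac, 3851 for K4me2, 3751 for K4me3, 5031 for K9me2, 4113 for K9me3, 4009 for K20me3 and 3178 for K27me2. Without pre-IP they were 621, 378, 648, 340, 820, 836, 652 and 370 for the 8 marks in the same order. The share of higher genes among those counted was 63.5% for K4me2 and 63.2% for K9me2, but 37.8% and 53.6% as deposited and 46.0% and 51.7% with quantile normalization over all arrays. For mRNA it was 79.0%, against 47.1% as deposited and 59.8% with quantile normalization over all arrays.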

Other observations

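Genes whose marks varied like those of the peptide genes were sought by Pearson's r over 16 enrichments, 8 marks in 2 hearts. The search took 6835 other genes with pre-IP DNA at or above the median and left out placeholder symbols, such as those starting with LOC or RGD. The 16 points of a gene share 2 pre-IP values, so r also follows pre-IP noise, and it is a description with no test. Nearest to Nppa were Grik5, a glutamate receptor gene, with r of 0.91, Pnma1 with 0.90 and Pcp4l1 with 0.90, whose mRNA differed by -0.35, 2.48 and -0.24. Nearest to Nppb were Nherf2, a scaffold protein gene, with 0.92, Pelo, which rescues stalled ribosomes, with 0.92 and Fbxw8 with 0.92, and their mRNA differed by -0.12, 0.75 and -0.57. Nppa and Nppb had r of 0.40 with each other, and the lowest r within the group was -0.71, between Nppb and Npr3.

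Placeholder symbols were also left out of the search by mRNA difference, which took 9188 other genes past the mRNA level filter. Nearest to Nppa were Reg3b, a secreted lectin gene, at 4.42, Ankrd23 at 4.64 and Ltbp2 at 4.72. Nearest to Nppb were Col8a2, a collagen gene, at 2.46, Cpt2, a carnitine palmitoyltransferase gene, at 2.45 and Des, the intermediate filament gene of muscle, at 2.43.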
